A study of Homo sapiens with 4 samples.

Results

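RNA sequencing of Huh7 and Huh1 cells was used to measure the genes that supply S-adenosylmethionine and those that recycle methylthioadenosine. The 10 genes were chosen by symbol, and all 10 were present, 1 row each, among the 18398 transcripts listed in every library. The genes MAT1A, MAT2A, MAT2B, AHCY and MTR belong to the methionine cycle, and MTAP, MRI1, APIP, ENOPH1 and ADI1 belong to the salvage route. Both lines are established human hepatocellular carcinoma lines, grown as cell lines and not sampled from tissue. The groups were Huh7 with an siRNA against ODC1, Huh7 with a negative control siRNA, Huh1 with the ODC1 siRNA and Huh1 with the negative control siRNA. Each group was 1 library of total RNA from whole cultures, with no other agent named in the labels, and no source used here gives the siRNA dose or the time after transfection. The comparisons asked how these genes stood after knockdown of ODC1, the gene of ornithine decarboxylase, within each line, and how they differed between the lines.

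In the methionine cycle, methionine adenosyltransferase joins methionine to ATP to make S-adenosylmethionine, the methyl donor of the cell. Methyl transfer leaves S-adenosylhomocysteine, which is split to homocysteine, and homocysteine is methylated back to methionine. Polyamine synthesis draws on the same pool: decarboxylated S-adenosylmethionine gives up its aminopropyl group to putrescine or spermidine and leaves methylthioadenosine, which the salvage enzymes turn back into methionine. Normal hepatocytes rely on the enzyme encoded by MAT1A, whereas growing and transformed liver cells are known for use of the one encoded by MAT2A.

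The promoters of MAT1A and MAT2A are shown because these were the only members of the 10 that were more than 2-fold lower in Huh7 than in Huh1 under each siRNA. Each stretch runs from 250 bases before to 50 bases after the gene start in the RefSeq annotation of GRCh38.p14, 5′ to 3′ on the strand of the gene. That of MAT1A is chr10:80289609-80289908 on the minus strand, and that of MAT2A is chr2:85538918-85539217 on the plus strand. Capitals mark matches on either strand to any of the motifs searched, and no match overlapped another. The E-box was spelled CACGTG and the GC box GGGCGG. The TATA box was spelled TATAAA, and the CCAAT box is spelled as it is named.
MAT1A: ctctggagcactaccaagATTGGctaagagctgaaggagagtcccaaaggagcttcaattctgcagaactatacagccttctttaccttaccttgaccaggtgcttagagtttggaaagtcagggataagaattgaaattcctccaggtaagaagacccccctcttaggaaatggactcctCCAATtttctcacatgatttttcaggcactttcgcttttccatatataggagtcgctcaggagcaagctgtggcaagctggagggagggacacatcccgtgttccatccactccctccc
MAT2A: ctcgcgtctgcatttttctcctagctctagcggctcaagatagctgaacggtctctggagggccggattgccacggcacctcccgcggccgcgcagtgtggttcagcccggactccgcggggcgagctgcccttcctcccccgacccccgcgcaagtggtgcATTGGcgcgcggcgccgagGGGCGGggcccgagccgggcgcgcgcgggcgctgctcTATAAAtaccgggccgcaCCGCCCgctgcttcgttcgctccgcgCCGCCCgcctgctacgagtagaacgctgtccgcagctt

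The MAT1A stretch held 2 CCAAT boxes and none of the other motifs, with 3 CpG dinucleotides and a GC content of 48.0%. In the MAT2A stretch there were 1 CCAAT box, 3 GC boxes and 1 TATA box, with 43 CpG dinucleotides and a GC content of 71.0%. Over all 27305 promoters of this length the medians were 14 CpG dinucleotides and a GC content of 58.3%. Fewer CpG dinucleotides than in MAT1A were found in 18.99% of these promoters, and fewer than in MAT2A in 95.1%. A CCAAT box occurred in 35.7% of all promoters, a GC box in 44.6%, a TATA box in 12.0% and an E-box in 7.43%, so matches to the first 2 are common. A match is a description of these letters, and no binding was measured.

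The deposited values were RPKM, that is reads scaled to transcript length and to the mapped reads of the library. The depth of the libraries was worked out from low RPKM values and GENCODE transcript lengths. It lay between 10215332 reads in Huh7 with ODC1 siRNA and 13384836 reads in Huh1 with control siRNA. At these depths 1 read on a 2 kb transcript was worth 0.0374 to 0.0489 RPKM. ODC1 itself stood at 7.50 RPKM with ODC1 siRNA and 167 RPKM with control siRNA in Huh7, which left 4.49% (95% counting interval 3.81 to 5.27%). In Huh1 it stood at 25.0 RPKM with ODC1 siRNA and 103 RPKM with control siRNA, which left 24.2% (22.1 to 26.5%). All 8 hepatocyte markers examined, among them ALB and HNF4A, reached at least 1 RPKM in every library. Their summed level was 1931 and 2443 RPKM in Huh7 with ODC1 and control siRNA and 4497 and 5190 RPKM in Huh1 with ODC1 and control siRNA. Most of the Huh1 sum was ALB, at 920.4 and 1166 RPKM in Huh7 and 2806 and 3447 RPKM in Huh1, each with ODC1 and then control siRNA. The tumour markers AFP and GPC3 summed to 843 and 1045 RPKM in Huh7 with ODC1 and control siRNA, against 142 and 156 RPKM in Huh1 with ODC1 and control siRNA. Of 6 fibroblast and stellate markers, 4 reached 1 RPKM in each Huh7 library and 1 in each Huh1 library, with sums of 370 and 284 RPKM in Huh7 with ODC1 and control siRNA and 15.7 and 12.1 RPKM in Huh1 with ODC1 and control siRNA. Of 5 blood markers 1 reached 1 RPKM in each library and HBB was listed at 0 in all 4, and the 3 endothelial markers in the files stayed below it.

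The transcripts of methionine adenosyltransferase were lower in Huh7 than in Huh1, most of all those of MAT1A. MAT2A, on chromosome 2 (85539165 to 85545280, plus strand, GRCh38), encodes the catalytic subunit found in most tissues. Its level was 90.7 RPKM with ODC1 siRNA and 98.5 RPKM with control siRNA in Huh7, against 233.4 RPKM with ODC1 siRNA and 233.1 RPKM with control siRNA in Huh1. Both Huh7 libraries lay below both Huh1 libraries. The Huh7 level was 38.9% of the Huh1 level with ODC1 siRNA (95% counting interval 37.2 to 40.7%) and 42.3% with control siRNA (40.6 to 44.0%). On log2(RPKM + 1), the difference Huh7 minus Huh1 was -1.29 with a standard error of 0.065 (limma, Benjamini-Hochberg adjusted p = 3.77e-07), lower in Huh7 under both siRNAs. These are levels in bulk RNA, in which fewer cells with a transcript and less of it per cell cannot be told apart.

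MAT1A, the gene of the catalytic subunit typical of normal liver, lies on chromosome 10 (80271820 to 80289684, minus strand). It stood at 0.863 RPKM with ODC1 siRNA and 0.759 RPKM with control siRNA in Huh7, against 10.2 RPKM with ODC1 siRNA and 8.23 RPKM with control siRNA in Huh1. In reads this was about 30 and 31.5 for Huh7 and 390 and 375 for Huh1, each with ODC1 and then control siRNA, and a fraction of a read is what the RPKM values themselves give. The Huh7 level was 8.45% of the Huh1 level with ODC1 siRNA (5.63 to 12.3%) and 9.22% with control siRNA (6.31 to 13.4%). The fitted difference Huh7 minus Huh1 was -2.49 on log2(RPKM + 1), with a standard error of 0.13 and an adjusted p of 5.53e-07 in limma. That was the largest difference between the lines among the 10 genes, and 281 of the 12039 transcripts tested were lower in Huh7 by more. Of the 8 hepatocyte markers, 6 were lower in both Huh7 libraries than in both Huh1 libraries, and 2, TTR and FGB, were higher. The share of all transcripts separated in this way was not worked out. In limma, 43.1% of all transcripts tested were called higher in Huh7 and 30.8% lower. The part of the marker differences in the MAT1A difference was not tested.

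Although MAT1A was present, it was the minor transcript of the pair in every library. Its level was 0.951% and 0.770% of that of MAT2A in Huh7 with ODC1 and control siRNA, and 4.37% and 3.53% in Huh1 with ODC1 and control siRNA. Together the pair summed to 91.6 and 99.3 RPKM in Huh7 with ODC1 and control siRNA and to 243.6 and 241.3 RPKM in Huh1 with ODC1 and control siRNA.

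MAT2B, on chromosome 5, encodes the regulatory subunit that binds the MAT2A product. Its level was 29.7 RPKM with ODC1 siRNA and 26.0 RPKM with control siRNA in Huh7, against 38.9 RPKM with ODC1 siRNA and 35.0 RPKM with control siRNA in Huh1. The difference Huh7 minus Huh1 was -0.40 on log2(RPKM + 1), with a standard error of 0.078 and an adjusted p of 0.00162 in limma. Because the regulatory subunit differed less than the catalytic one, the ratio of MAT2A to MAT2B levels was 3.06 and 3.79 in Huh7 with ODC1 and control siRNA, against 5.998 and 6.66 in Huh1 with ODC1 and control siRNA. MAT2B was also the only member whose ODC1 to control ratio lay outside counting error in both lines, at 114% in Huh7 (102 to 128%) and 111% in Huh1 (101 to 122%). Such ratios were common, at 47.0% of the transcripts examined in this way in Huh7 and 34.6% in Huh1. The share outside counting error in both lines was not worked out. For MAT2B the fit over both lines gave 0.17 on the log2 scale, with a standard error of 0.078, and it did not pass (adjusted p = 0.296 in limma).

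**Figure D1:**
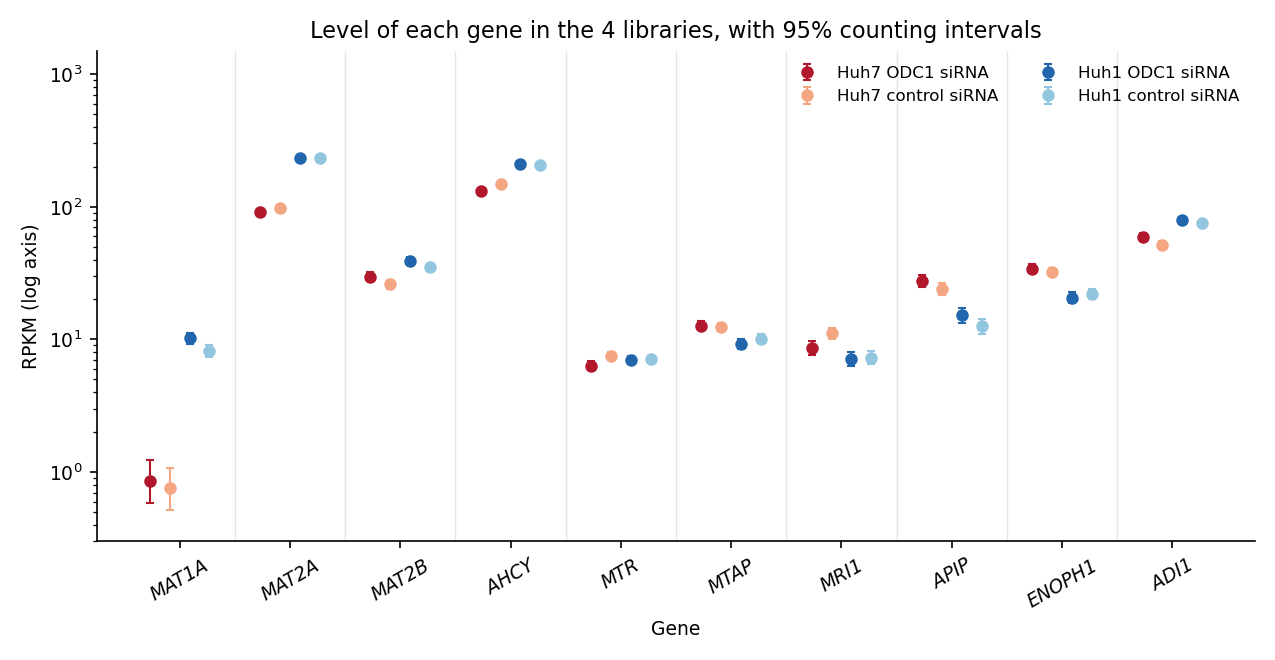
Level of each of the 10 genes in RPKM (log axis) in the 4 libraries, with 95% counting intervals as bars, Huh7 with ODC1 and control siRNA left of Huh1 with ODC1 and control siRNA. MAT1A stands near 0.8 RPKM in Huh7 and near 9 RPKM in Huh1, and MAT2A is lower in both Huh7 libraries. The measured levels in the libraries of the same line lie within 1.5-fold of each other for every gene.

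AHCY, on chromosome 20, encodes adenosylhomocysteinase, which removes the inhibitory product of methyl transfer. It stood at 132 RPKM with ODC1 siRNA and 149.6 RPKM with control siRNA in Huh7, against 210.3 RPKM with ODC1 siRNA and 207 RPKM with control siRNA in Huh1. The gene was lower in Huh7, by -0.56 on log2(RPKM + 1) with a standard error of 0.069 (limma, adjusted p = 9.41e-05). With no filter on low values this call was lost (adjusted p = 0.0569). AHCY was nevertheless the highest of the 10 genes in both Huh7 libraries, whereas MAT2A was the highest in both Huh1 libraries. The level of AHCY relative to MAT2A was 1.46 and 1.52 in Huh7 with ODC1 and control siRNA, against 0.901 and 0.887 in Huh1 with ODC1 and control siRNA. GENCODE release 29 names 6 pseudogenes of AHCY, and reads that match them may be assigned uncertainly. AHCY also shares 139 exonic bases with AL035458.2 on the same strand.

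MTR, on chromosome 1, encodes the cobalamin-dependent methionine synthase that remethylates homocysteine. Its level was the most even of the 10 genes, at 6.34 RPKM with ODC1 siRNA and 7.49 RPKM with control siRNA in Huh7 and 6.95 and 7.06 RPKM in Huh1 with ODC1 and control siRNA. The Huh7 and Huh1 ranges overlapped, and the fitted difference Huh7 minus Huh1 was -0.02 with a standard error of 0.11 and an adjusted p of 0.876 in limma. The 95% interval of that difference ran from -0.28 to 0.24, so differences of up to about this size were not resolved.

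The salvage genes did not move as a block between the lines: MTAP, MRI1, APIP and ENOPH1 were higher in Huh7, and ADI1 was lower. MTAP, on chromosome 9 (21802543 to 21937651, plus strand), encodes the phosphorylase that opens the route by cleaving methylthioadenosine. Its level was 12.7 RPKM with ODC1 siRNA and 12.4 RPKM with control siRNA in Huh7, against 9.24 RPKM with ODC1 siRNA and 10.1 RPKM with control siRNA in Huh1. The difference Huh7 minus Huh1 was 0.34 on log2(RPKM + 1), with a standard error of 0.10 and an adjusted p of 0.0133 in limma. This call was lost with quantile normalization (0.25, adjusted p = 0.0615) and with no filter on low values (adjusted p = 0.0915). MTAP is often deleted together with its neighbour CDKN2A in tumours, and here CDKN2A, a cell cycle inhibitor gene, stood at 11.1 and 13.3 RPKM in Huh7 with ODC1 and control siRNA and 12.5 and 12.1 RPKM in Huh1 with ODC1 and control siRNA. Transcripts of both genes were thus detected in all 4 libraries. CDKN2B stood between 5.02 and 8.81 RPKM and DMRTA1 between 2.13 and 5.99 RPKM over the libraries. IFNE was listed at 0 in all 4, and ELAVL2 did not exceed 0.0468 RPKM.

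MRI1, on chromosome 19, encodes the isomerase of methylthioribose 1-phosphate. It stood at 8.65 RPKM with ODC1 siRNA and 11.1 RPKM with control siRNA in Huh7, against 7.13 RPKM with ODC1 siRNA and 7.29 RPKM with control siRNA in Huh1. As a ratio, the Huh7 values were further apart than those of any other salvage gene in that line, and both exceeded the Huh1 values. The difference Huh7 minus Huh1 was 0.40, with a standard error of 0.12 and an adjusted p of 0.0128 in limma, and it no longer passed with no siRNA term in the fit (adjusted p = 0.0540) or with no filter (adjusted p = 0.153). MRI1 shares 115 exonic bases with C19orf53 on the same strand, whose level of 51.3 to 56.9 RPKM was several times that of MRI1. It shares more, 1078 exonic bases, with the antisense gene AC008686.1 on the opposite strand. The part of shared reads in the MRI1 difference was not tested.

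APIP, on chromosome 11, encodes the dehydratase of the next step. Its level was 27.5 RPKM with ODC1 siRNA and 24.1 RPKM with control siRNA in Huh7, against 15.2 RPKM with ODC1 siRNA and 12.5 RPKM with control siRNA in Huh1. In whole reads these were 353 and 370 in Huh7 and 214 and 211 in Huh1 with ODC1 and control siRNA. The Huh7 level was 1.81 times the Huh1 level with ODC1 siRNA and 1.92 times with control siRNA, and the fitted difference was 0.85 with a standard error of 0.087 and an adjusted p of 2.98e-05 in limma. This was the largest difference upward in Huh7 among the 10 genes. APIP shares 259 exonic bases on the opposite strand with PDHX, a pyruvate dehydrogenase component gene, which stood at 24.7 and 22.8 RPKM in Huh7 with ODC1 and control siRNA and at 11.8 and 14.0 RPKM in Huh1 with ODC1 and control siRNA. No source used here says whether counting used strand, so reads of the pair may be mixed, and their part in the difference was not tested.

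ENOPH1, on chromosome 4, encodes the enolase-phosphatase that makes the acireductone intermediate. It stood at 34.2 RPKM with ODC1 siRNA and 32.4 RPKM with control siRNA in Huh7, against 20.7 RPKM with ODC1 siRNA and 22.1 RPKM with control siRNA in Huh1. The gene was higher in Huh7 by 0.62 on log2(RPKM + 1), with a standard error of 0.086 and an adjusted p of 0.000203 in limma.

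ADI1, on chromosome 2, encodes the acireductone dioxygenase that yields the keto acid precursor of methionine, and it was the most abundant salvage transcript in every library. Its level was 59.2 RPKM with ODC1 siRNA and 51.6 RPKM with control siRNA in Huh7, against 79.2 RPKM with ODC1 siRNA and 75.7 RPKM with control siRNA in Huh1. The difference Huh7 minus Huh1 was -0.48, with a standard error of 0.072 and an adjusted p of 0.000335 in limma. Since MTAP and ADI1 differed in opposite directions, the ratio of ADI1 to MTAP levels was 4.65 and 4.16 in Huh7 with ODC1 and control siRNA, against 8.57 and 7.47 in Huh1 with ODC1 and control siRNA. Summed over the 5 salvage genes, the level differed little between libraries, at 142.2 and 131.5 RPKM in Huh7 with ODC1 and control siRNA and 131.4 and 127.8 RPKM in Huh1 with ODC1 and control siRNA. GENCODE names 3 pseudogenes of ADI1 and 2 of MTAP. On the same strand, MTAP shares 460 exonic bases with the protein-coding AL359922.1 and 684 with ERVFRD-3. On the opposite strand it shares 257 with AL359922.2. ADI1 shares 369 exonic bases with AC231981.1 and 68 with AC114810.1, both on the opposite strand. The part of shared reads in the MTAP and ADI1 differences was not tested.

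Over the 10 genes, 9 passed the test between the lines, 4 of them higher and 5 lower in Huh7. Hepatocyte, tumour and fibroblast markers differed between the lines as well, and their part in these differences was not tested. Line differences were common in these data: of the 12039 transcripts tested, 43.1% were called higher in Huh7 and 30.8% lower. The share of called members is read against that background, and nothing particular to the 10 genes follows from it. For 9 of the 10, the Huh7 to Huh1 ratio lay outside counting error under each siRNA, against 80.2% of all transcripts with ODC1 siRNA and 82.4% with control siRNA, and MTR was the exception. A difference of at least 2-fold downward in Huh7 was found for 2 of the 10 genes under each siRNA, against 11.1% of transcripts with ODC1 siRNA and 10.2% with control siRNA. The median difference of all transcripts tested was 0.13, and quantile normalization moved it by -0.11. Relative to that median, MAT1A differed by -2.62, MAT2A by -1.43, AHCY by -0.70, ADI1 by -0.61, MAT2B by -0.53, MTR by -0.15, MTAP by 0.21, MRI1 by 0.26, ENOPH1 by 0.48 and APIP by 0.72. No member changed direction between the lines under any of the settings tried. Only quantile normalization, upper quartile scaling and the changed pseudocount could have moved these differences, since the other settings left the estimates as they were.

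**Figure D2:**
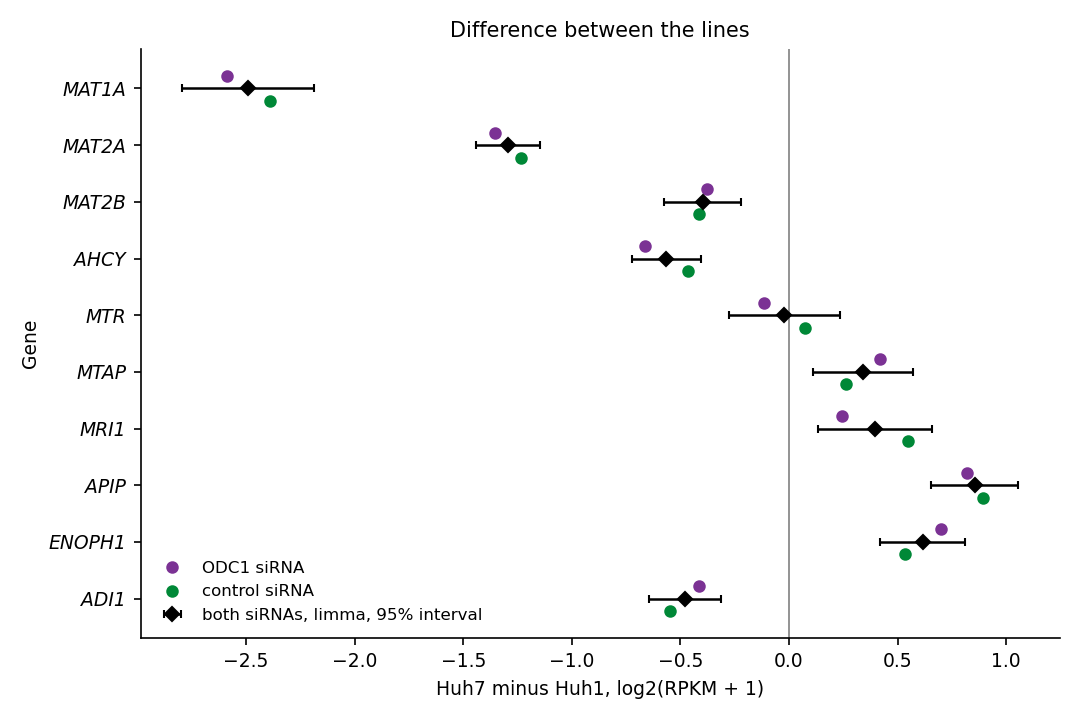
Difference between the lines, Huh7 minus Huh1, on log2(RPKM + 1) for each of the 10 genes, with the value under ODC1 siRNA and under control siRNA as points and the limma estimate over both with its 95% interval. MAT1A and MAT2A stand far below 0 at -2.49 and -1.29, MTAP, MRI1, APIP and ENOPH1 stand above 0, and the interval of MTR includes 0.

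Within a library, the order of levels was AHCY, MAT2A, ADI1, ENOPH1, MAT2B, APIP, MTAP, MRI1, MTR and MAT1A in both Huh7 libraries. Neighbours were compared by the counting interval of the ratio of their levels. In Huh7 with ODC1 siRNA, MAT2B and APIP did not differ beyond counting error, and with control siRNA neither did MAT2B and APIP nor MTAP and MRI1. In Huh1 the order began with MAT2A, AHCY, ADI1, MAT2B, ENOPH1 and APIP under both siRNAs. The lower end of the Huh1 order depended on the siRNA, and it was here that neighbours lay within counting error. These were MAT1A and MTAP, and MRI1 and MTR, with ODC1 siRNA, and MAT1A and MRI1, and MRI1 and MTR, with control siRNA.

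With ODC1 siRNA, the measured levels of all 10 genes lay within 1.5-fold of control in both lines. These are point values. For MAT1A in Huh7 the ratio of ODC1 to control siRNA was 114%, with a counting interval of 65.7 to 190%. A change of MAT1A beyond 1.5-fold in that line is thus not excluded. None of the members passed the limma test over both lines: 0 of 10, against 2.12% of all 12039 transcripts tested at an adjusted p under 0.05. The smallest adjusted p was 0.226, for APIP, which was also the 1 member with an unadjusted p under 0.05 (limma, 0.0357), against 19.0% of all transcripts tested. Each alternative setting likewise called 0 of 10. With no filter, no intensity trend or no line term, however, 0 of all transcripts were called, so those settings could call no member. Quantile normalization and a pseudocount of 0.1 called only 52 and 54 of all transcripts. The median change of the members over both lines was -0.03 on the log2 scale, against 0.01 over all transcripts tested, with 4 members above 0 and 6 below. Within each line taken alone the split was the other way, with 6 above 0 and 4 below, and medians of 0.06 in Huh7 and 0.01 in Huh1. No member changed at least 2-fold within a line, against 0.771% of transcripts in Huh7 and 0.0825% in Huh1. This rule also required at least 1 RPKM in either library, so MAT1A could not have counted in Huh7.

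The 95% intervals of the changes over both lines show how closely these libraries fix each change. They are per gene and not adjusted for the number of transcripts tested. That of APIP lies wholly above no change, although its adjusted p did not pass. For APIP the change was 0.22 on log2(RPKM + 1) with an interval of 0.02 to 0.42, from 0.18 in Huh7 and 0.26 in Huh1. MAT1A had a change of 0.18 (interval -0.12 to 0.48), from 0.08 in Huh7 and 0.28 in Huh1. The MAT2A estimate of -0.06 had an interval of -0.21 to 0.09, from -0.12 in Huh7 and 0.00 in Huh1. A p that misses the threshold does not show that a gene was unaffected.

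Among the cycle enzymes, AHCY had an estimate of -0.08 (interval -0.23 to 0.08) and MTR one of -0.12 (interval -0.37 to 0.14). In the salvage route, ADI1 had an estimate of 0.13 (-0.04 to 0.30), ENOPH1 one of -0.01 (-0.20 to 0.19), MTAP one of -0.04 (-0.27 to 0.19) and MRI1 one of -0.18 (-0.44 to 0.09). The salvage genes thus lay on both sides of 0.

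Within Huh7, 6 of the 10 genes had an ODC1 to control ratio outside counting error, against 47.0% of all transcripts with at least 1 RPKM in either library and a read number. Within Huh1 2 of 10 did, against 34.6% of such transcripts. MAT1A lay below 1 RPKM in both Huh7 libraries, so the Huh7 share leaves such genes out, and it was not among the 6. In Huh7 the ratio was 77.9% for MRI1 (66.4 to 90.9%), 84.6% for MTR (76.6 to 93.5%), 88.5% for AHCY (84.4 to 92.8%) and 92.1% for MAT2A (87.5 to 96.9%). Those genes were lower with ODC1 siRNA in that line, whereas ADI1, at 115% (105 to 125%), and MAT2B were higher. In Huh1 the genes outside counting error were MAT1A, at 124% (107 to 143%), and MAT2B. Such intervals compare 2 libraries and carry no spread between cultures, so no difference here is attributed to the siRNA. Whether the response of a gene differed between the lines was not tested, since 1 library per combination leaves no error for it.

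**Figure D3:**
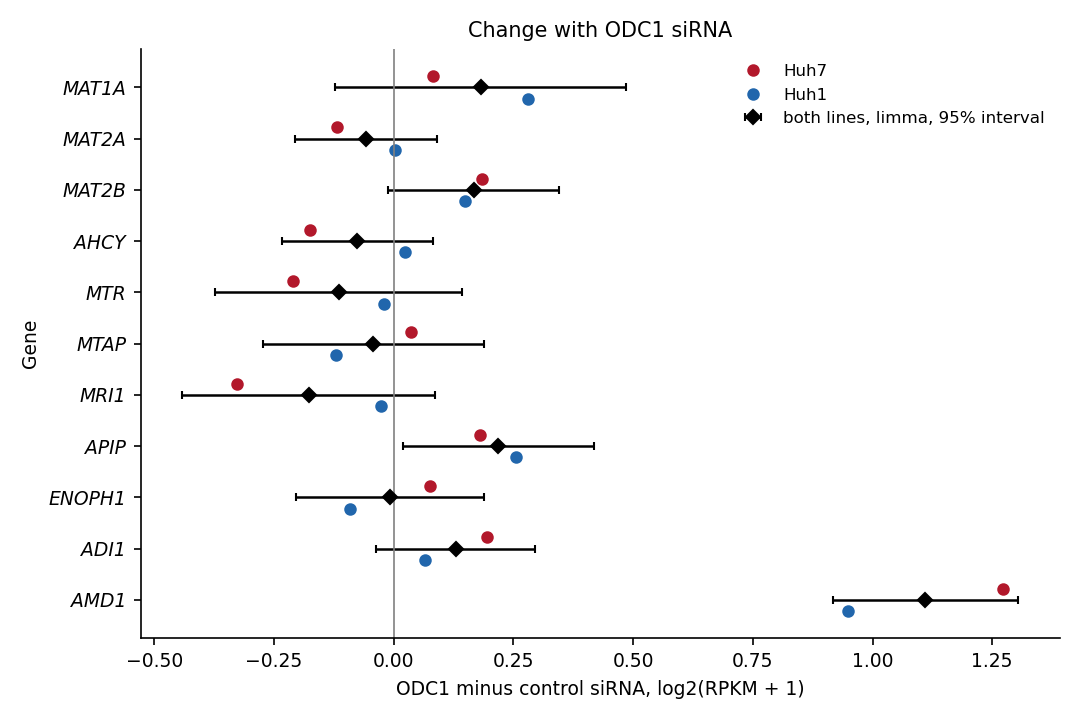
Change with ODC1 siRNA on log2(RPKM + 1) for the 10 genes and, for scale, AMD1, with the value within Huh7 and within Huh1 as points and the limma estimate over both lines with its 95% interval. The 10 genes lie between -0.33 and 0.28 in either line, while AMD1 lies at 1.27 in Huh7 and 0.95 in Huh1.

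Upstream of the salvage route stand AMD1, SRM and SMS, of which AMD1 was called with ODC1 siRNA and the synthases that release methylthioadenosine were not. AMD1 encodes S-adenosylmethionine decarboxylase, which commits S-adenosylmethionine to polyamine synthesis. It stood at 179.7 RPKM with ODC1 siRNA and 73.8 RPKM with control siRNA in Huh7, and at 158.2 RPKM with ODC1 siRNA and 81.5 RPKM with control siRNA in Huh1. AMD1 rose in both lines, by 1.11 on log2(RPKM + 1) with a standard error of 0.085 (limma, adjusted p = 0.00239). The ratio of ODC1 to control siRNA was 2.44 in Huh7 and 1.94 in Huh1. This call was lost with no filter (adjusted p = 0.517), with no intensity trend (adjusted p = 0.198) and with no line term (adjusted p = 1.00), the settings under which limma called no transcript at all.

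With MTAP at a log2 change of -0.04 that did not pass, the ratio of AMD1 to MTAP levels was 14.1 with ODC1 siRNA and 5.96 with control siRNA in Huh7, and 17.1 with ODC1 siRNA and 8.04 with control siRNA in Huh1. Spermidine synthase SRM, which releases methylthioadenosine, stood at 87.3 and 83.5 RPKM in Huh7 with ODC1 and control siRNA and at 123 and 120.3 RPKM in Huh1 with ODC1 and control siRNA (0.05, adjusted p = 0.735 in limma). Spermine synthase SMS stood at 254.7 and 209 RPKM in Huh7 with ODC1 and control siRNA and at 62.4 and 54.6 RPKM in Huh1 with ODC1 and control siRNA. Its change of 0.24 with ODC1 siRNA did not pass (adjusted p = 0.106 in limma). SMS was higher in Huh7 by 1.97 on the log2 scale (limma, adjusted p = 3.2e-08), whereas SRM was lower in that line by -0.51 (limma, adjusted p = 0.000121).

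Over 8 lists of genes around the route, 82 genes were listed, 80 were in the files and 75 were tested. With ODC1 siRNA 2 rose, 0 fell and 73 did not pass in limma, with a median change of -0.02 against 0.01 over all transcripts tested. At an unadjusted p under 0.05, 6 were higher and 9 lower, beside 19.0% of all transcripts in either direction. The second gene that rose was ICMT, the methyltransferase that caps isoprenylated proteins, at 51.7 and 33.5 RPKM in Huh7 with ODC1 and control siRNA and 21.0 and 15.9 RPKM in Huh1 with ODC1 and control siRNA. Its change of 0.50, with a standard error of 0.089, was near the threshold (limma, adjusted p = 0.0356). That call was lost under 6 of the 8 alternatives, with adjusted p between 0.0597 and 1.00.

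Among 10 partners of the methyl cycle, 9 were tested, 0 were called with ODC1 siRNA and the median change was 0.09. At an unadjusted p under 0.05 limma gave 1 higher and 1 lower, which were APRT and MTRR. MTRR, the reductase that keeps methionine synthase active, stood at 14.0 and 17.8 RPKM in Huh7 with ODC1 and control siRNA and 21.8 and 27.3 RPKM in Huh1 with ODC1 and control siRNA (-0.32, adjusted p = 0.102 in limma). It was lower with ODC1 siRNA in both lines by a like amount, without passing the test. APRT, which reclaims the adenine released by MTAP, stood at 88.7 and 64.4 RPKM in Huh7 with ODC1 and control siRNA and 89.0 and 84.8 RPKM in Huh1 with ODC1 and control siRNA (0.26, adjusted p = 0.186 in limma). CTH, the lyase that makes cysteine from cystathionine, stood at 2.69 and 2.46 RPKM in Huh7 with ODC1 and control siRNA and 9.99 and 7.95 RPKM in Huh1 with ODC1 and control siRNA (0.19, adjusted p = 0.432 in limma). BHMT, a liver enzyme that remethylates homocysteine with betaine, did not exceed 1.76 RPKM in any library (0.19, adjusted p = 0.601 in limma). Between the lines, 6 of the 9 were lower in Huh7 and 0 higher, with a median difference of -0.60, beside 30.8% lower and 43.1% higher over all transcripts tested.

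The folate and cobalamin lists gave 0 calls with ODC1 siRNA among 15 and 10 tested genes, with median changes of -0.05 and -0.03. At an unadjusted p under 0.05 limma gave 1 folate gene, and 4 cobalamin genes among them MTRR, beside the 19.0% of all transcripts. The folate genes furthest from 0 were ALDH1L1, at 0.23 (limma, adjusted p = 0.348), and those with changes of -0.27 for the folate carrier SLC19A1 (limma, adjusted p = 0.230), -0.20 for MTHFS (0.314) and -0.19 for TYMS (0.309). In the cobalamin list, beside MTRR, they were 0.35 for MUT, the mitochondrial mutase (limma, adjusted p = 0.109), 0.29 for the carrier TCN2 (0.260) and -0.27 for MMACHC (0.249). ALDH1L1, a folate dehydrogenase typical of liver, stood at 0.0940 RPKM in Huh7 with ODC1 siRNA and was listed at 0 with control siRNA, against 33.4 and 26.2 RPKM in Huh1 with ODC1 and control siRNA. Between the lines, 5 of the 15 folate genes were higher and 5 lower in Huh7, and 4 of the 10 cobalamin genes were higher and 3 lower. Over all transcripts tested, 43.1% were called higher and 30.8% lower.

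Of 22 tested methyltransferases that use S-adenosylmethionine, 1 rose with ODC1 siRNA, 0 fell and the median change was -0.05. At an unadjusted p under 0.05 limma gave 1 higher and 3 lower. NNMT, which methylates nicotinamide, stood at 14.5 and 10.8 RPKM in Huh7 with ODC1 and control siRNA and 0.734 and 2.13 RPKM in Huh1 with ODC1 and control siRNA (-0.23, adjusted p = 0.662 in limma). Its values moved in opposite directions in the lines. GAMT, which makes creatine, had a change of -0.22 (limma, adjusted p = 0.217), and PEMT, which makes phosphatidylcholine, one of -0.20 (0.312). Between the lines, 14 of the 22 were higher in Huh7 and 3 lower, with a median difference of 0.44, beside 43.1% higher, 30.8% lower and a median of 0.13 over all transcripts tested.

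The transport list had 10 tested genes, 0 calls and a median change of 0.03 with ODC1 siRNA. SLC7A7, an amino acid exchanger gene, stood at 26.0 and 15.4 RPKM in Huh7 with ODC1 and control siRNA and 4.97 and 5.85 RPKM in Huh1 with ODC1 and control siRNA (0.26, adjusted p = 0.491 in limma). SLC38A2 had a value of -0.24 (limma, adjusted p = 0.149, the 1 gene with an unadjusted p under 0.05), SLC7A5 of -0.15 (0.336) and SLC43A2 of 0.07 (0.807). For the last step of salvage, the transamination to methionine, 4 candidate genes were tested and 0 were called, with a median change of -0.11. GOT1 and GOT2, the cytosolic and mitochondrial aspartate aminotransferases, had values of -0.21 and -0.18 (limma, adjusted p = 0.189 and 0.219) and were the 2 with an unadjusted p under 0.05. TAT had a value of 0.06 (limma, adjusted p = 0.902) and CCBL1 of -0.05 (0.854). All 4 were lower in Huh7 than in Huh1, with a median difference of -0.59, a direction called for 30.8% of all transcripts tested. Among the 3 tested neighbours of MTAP, 0 were called with ODC1 siRNA, also at an unadjusted p under 0.05 in limma, with a median change of -0.10.

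**Figure D4:**
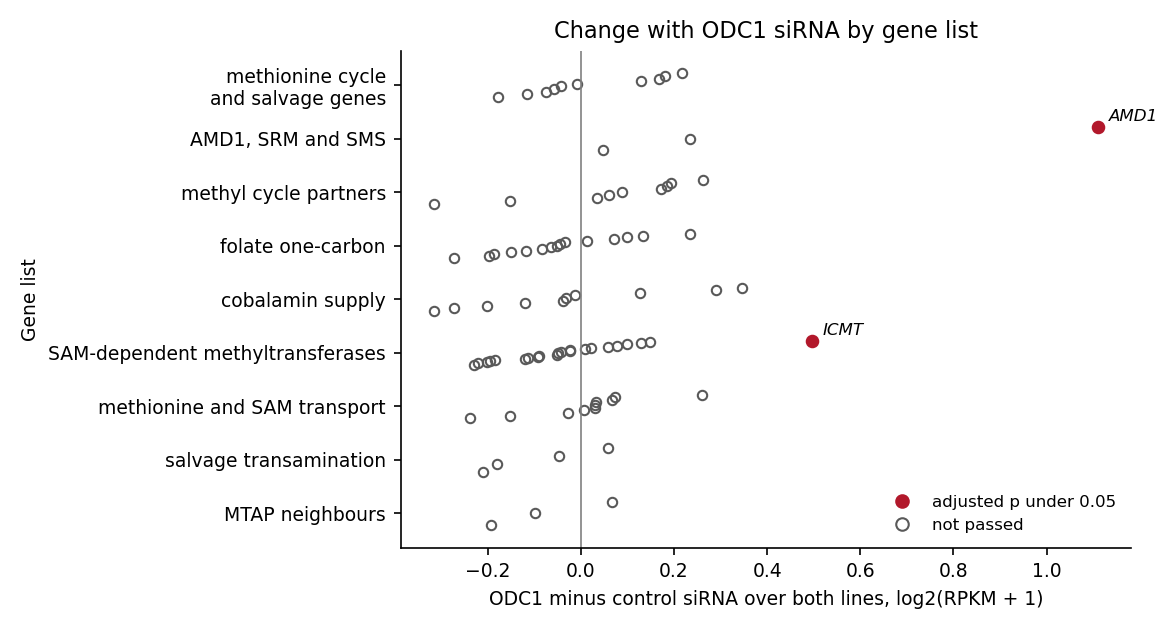
Change with ODC1 siRNA over both lines, on log2(RPKM + 1), for the 10 genes and the 8 surrounding lists, 1 point per tested gene, filled where the limma adjusted p was under 0.05. AMD1 at 1.11 and ICMT at 0.50 are the only filled points, and the 10 genes lie between -0.18 and 0.22.

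The transcripts whose pattern over the 4 libraries was most like that of MAT2A were PDE12, ARHGEF5 and TH1L, among 9508 others with at least 5 RPKM in any library. Likeness was the root mean square difference of centred log2(RPKM + 1) values, which was 0.0184 for PDE12, 0.0248 for ARHGEF5 and 0.0322 for TH1L. PDE12 stood at 13.0 and 13.9 RPKM in Huh7 with ODC1 and control siRNA and at 33.9 and 33.6 RPKM in Huh1 with ODC1 and control siRNA. Since these transcripts were picked for likeness to MAT2A, that each had both Huh7 libraries well below both Huh1 libraries follows from the choice. TH1L, the least alike of them, stood at 36.6 and 42.1 RPKM in Huh7 with ODC1 and control siRNA. In Huh1 it stood at 95.1 and 97.2 RPKM with ODC1 and control siRNA. GGCX, which shares 558 exonic bases with MAT2A on the opposite strand, stood at 13.5 and 15.1 RPKM in Huh7 with ODC1 and control siRNA and at 23.1 and 21.4 RPKM in Huh1 with ODC1 and control siRNA. Its Huh7 libraries also lay below its Huh1 libraries, and the part of shared reads in this was not tested.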

How the data were processed

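Total RNA from Huh7 and Huh1 cells transfected with an ODC1 or a negative control siRNA was made into Illumina TruSeq libraries, per the labels' protocols. The submitters' processing notes name CASAVA 1.8.2, TopHat2 2.0.9 and hg19. For the counting program, its annotation and its use of strand, the entry is: not given in the sources used here. The authors deposited RPKM values per RefSeq transcript, scaled to depth and transcript length, so no count model was used.

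Values were analysed as log2(RPKM + 1), which understates the change of low genes. Over the 12039 transcripts with at least 1 RPKM in any library, limma 3.58.1 (R 4.3.3) was fitted with siRNA and line as terms and an intensity trend, with Benjamini-Hochberg adjustment over all of them and a threshold of 0.05. The fit has 1 residual degree of freedom, and the prior adds 7.42, so a standard error is set mostly by other transcripts. No label names separate cultures, and no group has a repeat library. In this fit, a transcript's own error comes only from how unequally its level changed with ODC1 siRNA in Huh7 and in Huh1. The p-values therefore carry no spread between repeat cultures. For the test between the lines, the differently transfected libraries of a line stand in for repeats. Within a line, 2-fold was a rule of size with no test.

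Relative depth was recovered from ratios between values under 0.3 RPKM (relative tolerance 1e-06). For absolute depth, the smallest value of a low transcript was taken as a single read at its GENCODE release 29 length. The median around the most common estimate was used. Read numbers came out whole (tolerance 0.001 reads) at a single transcript length for APIP, ENOPH1 and ADI1, as fractions for MAT1A, MAT2B and AHCY, and for MAT2A, MTR, MTAP and MRI1 the GENCODE release 29 length was used. The 95% counting intervals rest on these numbers and cover counting error only. Shares of all transcripts outside counting error used the GENCODE length for every transcript. Loci and overlaps are from GENCODE release 29 on GRCh38, and promoters from RefSeq.

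The members and lists were chosen with earlier results of these data known. Named were all members, ODC1, every called gene of a list with up to 4 in all by size of change, all genes of the list of AMD1, SRM and SMS and of that of MTAP neighbours, and the 3 transcripts most like MAT2A. The listed genes SLC46A1 and CCBL2 were not analysed here. Alternatives were quantile normalization, scaling to the upper quartile of transcripts above 0 in any library, no filter on low values or one at 5 RPKM, a pseudocount of 0.1, no intensity trend, a trend on counting variance, no line or siRNA term, and a 1.5-fold rule.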

Additional observations from a re-analysis of the deposited data

Results flagged for a closer look

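For 4 of the 10 genes the change with ODC1 siRNA had opposite signs in the lines, which is what singled them out. The share of all transcripts with opposite signs was not worked out, so nothing particular to the 10 genes follows from this count. Each sign rests on 1 library per siRNA and line, and whether these responses differ was not tested. On log2(RPKM + 1), the change in Huh7 minus that in Huh1 was -0.12 for MAT2A (-0.12 in Huh7 and 0.00 in Huh1) and -0.20 for AHCY (-0.18 in Huh7 and 0.02 in Huh1). For the salvage genes it was 0.16 for MTAP (0.04 in Huh7 and -0.12 in Huh1) and 0.17 for ENOPH1 (0.08 in Huh7 and -0.09 in Huh1). In Huh1, the ratios of ODC1 to control siRNA for all 4 genes lay within counting error, and in Huh7 those of MTAP and ENOPH1 did.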

How the results depend on the processing

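The change of each of the 10 genes with ODC1 siRNA kept its direction under the 8 alternatives to the fit, and 0 of 10 were called in each. In either contrast, only quantile normalization, upper quartile scaling and the pseudocount of 0.1 could move an estimate. The other alternatives changed only its error or the transcripts tested, so an unchanged sign there was fixed in advance. Between the lines, the count of called genes lay between 6 (no filter) and 9, and none of the 80 values compared changed sign. The 5 calls lost were those of AHCY, MTAP and MRI1 with no filter, MTAP with quantile normalization and MRI1 with no siRNA term. The number of transcripts called with ODC1 siRNA over all genes depended strongly on the setting. It was 255 in the fit as reported, 483 with upper quartile scaling, 313 with a trend on counting variance, 108 with a filter at 5 RPKM, 54 with a pseudocount of 0.1, 52 with quantile normalization, and 0 with no filter, no intensity trend or no line term. At an unadjusted p under 0.05, limma gave 1725, 1830 and 22 transcripts under those last settings. The split was 181 higher and 74 lower as reported, and 288 higher and 195 lower with upper quartile scaling. AMD1 between the lines was at 0.02 as reported and at -0.078 with upper quartile scaling, without passing in either. The line term is the replicate block of the design, since the libraries of a line form the pair, and no other paired analysis was possible because the labels give no replicate numbers. Leaving out a library leaves no residual degree of freedom, so only the values within the other line remain, as given above. Depth limits MAT1A most, with about 30 reads in each Huh7 library.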
